A study of Homo sapiens with 2 samples.

Results

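The genes described here encode the kinases and ubiquitin ligase subunits that act on the PER, CRY and BMAL1 proteins, together with TIMELESS. They are CSNK1D, CSNK1E, CSNK1A1, CSNK2A1, GSK3A, GSK3B, FBXW11, BTRC and TIMELESS, chosen by name for that role, and they make up 9 of the 58302 gene identifiers in the deposited tables. All 9 were found in both libraries, and each stood at 10 CPM or more in both, CPM being a count scaled to library size. The cells were HK-2, a human kidney line that was immortalised from proximal tubule epithelium, kept in RPMI-1640 medium with 10% fetal bovine serum, penicillin and streptomycin. Infection lasted 24 h and used an adenovirus, either for GFP, a fluorescent control protein (the library labelled Ad-GFP), or for the Bmal1 coding sequence (the library labelled Ad-Bmal1). The name of the line is spelled out differently in the labels of the libraries, and both were taken as HK-2. The promoter that drives either insert is not given in the sources used here. Each group is 1 library, so the differences below have no replicate check and compare these 2 libraries, not the conditions. Values in pairs are given with the library labelled Ad-GFP first, and ratios are those of the library labelled Ad-Bmal1 over the other.

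The libraries held 20032652 and 20051735 counts. BMAL1, which the vector was built to express, had 204 and 133 counts, a ratio of 0.667 (95% counting interval 0.532 to 0.834), against what the labels say, and each direction below is read under that limit. Which species' sequence the vector carries is not given in the sources used here. Of 12 epithelial and tubule genes 5 were measured (at 1 CPM or more in at least 1 library), with the keratin genes KRT8 at 20712 and 19292 counts and KRT18 at 4925 and 3212, and the kidney transcription factor gene PAX8 at 6502 and 8529. The brush border receptor gene LRP2, a defining proximal tubule gene, was at 0 in both libraries, and AQP1, the water channel of that segment, had 4 counts in each, while the brush border enzyme gene GGT1 had 4473 and 4881. The epithelial cadherin gene CDH1 had 1 and 4 counts, while the epithelial gene EPCAM had 842 and 746. Also below the measured level were PAX2 (3 and 8 counts), CUBN (8 and 2), SLC34A1 (1 and 5) and ANPEP (19 and 7). Leukocyte genes summed to 21.6 and 20.6 CPM, nearly all of it CSF1R at 21.4 and 20.5 CPM, with 4 of 6 at 0 in both libraries. Endothelial genes summed to 0.148 and 0.252 CPM with 3 of 5 at 0 in both. Fibroblast genes summed to 79.5 and 101 CPM, 4 of 8 measured. Most of that was COL1A1 at 63.4 and 84.8 CPM, while DCN had 6.41 and 4.59 CPM, COL1A2 had 4 and 1 counts and COL3A1 had 0 and 1. Hepatocyte genes summed to 297 and 264 CPM, most of it SERPINA1 (5999 and 5011 counts), while ALB had 9 and 165 counts and APOA1, TTR and APOB were at 0 in the library labelled Ad-GFP and at 15, 9 and 4 in the other. The part of these markers in the values below was not tested. In bulk RNA, fewer cells that express a gene and less RNA per cell cannot be told apart.

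The circadian clock turns on a delay: PER and CRY proteins build up, enter the nucleus and repress BMAL1 and CLOCK, and are then destroyed. Casein kinase 1 delta and epsilon phosphorylate PER proteins, which sets how long these last, and the F-box proteins beta-TrCP1 and beta-TrCP2 bind phosphorylated PER and pass it to the SCF ubiquitin ligase. Casein kinase 1 alpha, casein kinase 2 and the 2 forms of glycogen synthase kinase 3 act on further sites of clock proteins, and all of these enzymes also serve Wnt signalling, the cell cycle or metabolism. TIMELESS is named after a fly clock gene, and in mammals it is best known for protecting the DNA replication fork. Much of this control acts on proteins, which the present data do not measure.

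The 9 genes did not share a direction. Ratios were above 1 for 5 genes and below 1 for 4, with a median of 0.05 on the log2 scale, beside 0.00 over all 13231 measured genes. The size asked for was a ratio at least 25% above 1 or at least 20% below it, with a counting interval that excluded 1. It was met by GSK3B, with a ratio of 1.33, and by CSNK1E, with a ratio of 0.759 (1.32-fold lower), while TIMELESS at 1.24-fold lay just short. Of all measured genes 11.6% met it in the higher and 11.2% in the lower direction, so 1 of 9 members each way is near the background. No member was 1.5-fold apart, which 4.41% (higher) and 4.9% (lower) of measured genes were, and none was 2-fold apart, which 1.13% and 1.74% were.

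Intervals are exact 95% conditional binomial (Clopper-Pearson) intervals and cover counting error alone. By that measure 3 members lay above 1 (CSNK1D, GSK3B and TIMELESS), 3 below (CSNK1E, CSNK1A1 and CSNK2A1) and 3 included 1 (GSK3A, FBXW11 and BTRC). Over all measured genes 23.8% had an interval above 1 and 21.6% below. Among the 8372 genes that reached 10 CPM in at least 1 library these shares were 31.7% and 26.5%, an interval being narrower at higher counts. The members' shares of 3 in 9 each way are near those of these 8372 genes, which were not matched to the members in level.

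**Figure D1:**
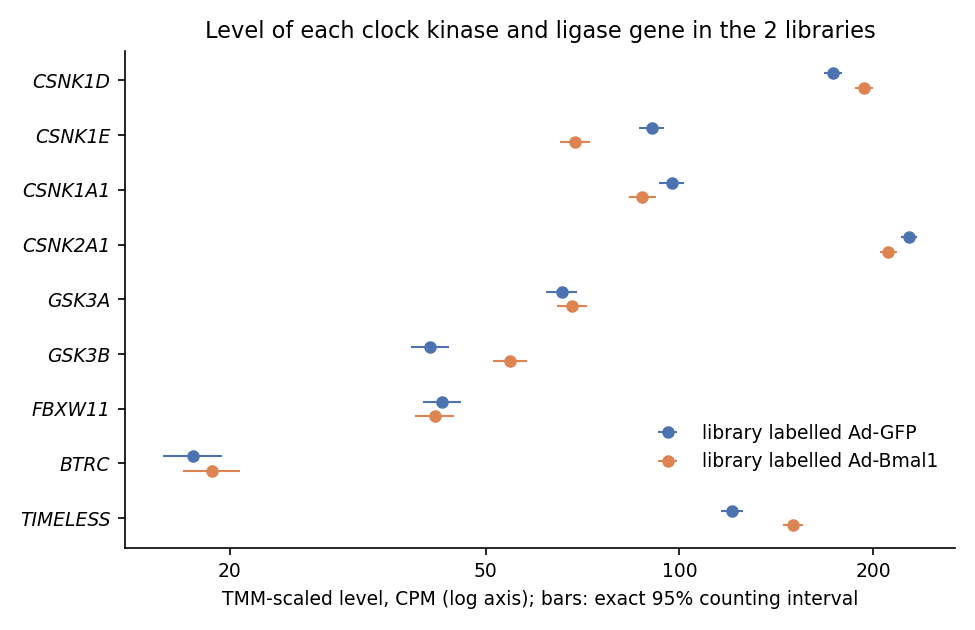
TMM-scaled level in CPM (log axis) of each of the 9 genes in the library labelled Ad-GFP (blue) and the library labelled Ad-Bmal1 (orange), with exact 95% counting intervals as bars. The intervals of the 2 libraries lie apart for CSNK1D, CSNK1E, CSNK1A1, CSNK2A1, GSK3B and TIMELESS, and overlap for GSK3A, FBXW11 and BTRC.

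BMAL1 and CLOCK bind the E-box CACGTG, so the sequence before the start of the members farthest apart between the libraries was read for that motif and for others that clock factors bind. RefSeq promoter windows (GRCh38.p14, 250 bases before to 50 after a start) matched 7 of the 9 genes with 9 windows, and CSNK1D and BTRC were not matched. Also searched, on both strands, were the E-box variant CACGTT, the D-box TTATGNAA and the half-site AGGTCA of ROR and REV-ERB receptors. None of these motifs overlaps another in the windows shown. The bases before the start of CSNK1E (chr22:38318085-38318334, minus strand), GSK3B (chr3:120094448-120094697, minus strand) and TIMELESS (chr12:56449427-56449501, minus strand) are given 5′ to 3′ on the strand of the gene, with matches in capitals. The TIMELESS stretch is short because an exon of the neighbouring gene MIP lies next to it.
CSNK1E: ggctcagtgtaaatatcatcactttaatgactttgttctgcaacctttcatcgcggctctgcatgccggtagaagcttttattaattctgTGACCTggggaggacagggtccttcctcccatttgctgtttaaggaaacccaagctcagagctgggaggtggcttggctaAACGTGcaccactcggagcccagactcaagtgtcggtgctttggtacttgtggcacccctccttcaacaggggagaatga
GSK3B: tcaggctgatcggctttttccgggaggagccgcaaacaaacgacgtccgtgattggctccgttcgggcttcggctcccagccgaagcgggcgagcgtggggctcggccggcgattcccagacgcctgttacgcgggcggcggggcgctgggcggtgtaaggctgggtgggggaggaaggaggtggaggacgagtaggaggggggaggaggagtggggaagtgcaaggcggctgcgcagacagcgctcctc
TIMELESS: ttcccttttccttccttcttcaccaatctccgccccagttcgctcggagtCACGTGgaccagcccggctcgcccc

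Of the 7 members with a window, TIMELESS was the 1 with an E-box, beginning at position -25 from the start. An E-box is held by 7.26% of all 35116 RefSeq promoter windows of the same length. The first of the 2 windows of CSNK1E held the E-box variant on the opposite strand at position -80 and the receptor half-site on the opposite strand at position -160. Those motifs occur in 5.34% and 13.8% of all windows. No window of GSK3B, GSK3A, CSNK1A1, CSNK2A1 or FBXW11 held any of the 4 motifs, and the D-box, held by 3.30% of all windows, was in none of the 9. A match describes letters and is no evidence of binding.

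CSNK1E, which encodes casein kinase 1 epsilon (ENSG00000213923, chromosome 22, 38290691 to 38318084, minus strand), had 1835 and 1362 counts. Scaled, these are 90.5 CPM in the library labelled Ad-GFP against 68.7 CPM in the one labelled Ad-Bmal1, a ratio of 0.759 (0.708 to 0.815). It was the lowest ratio of the 9. Positions of genes here and below are those of GENCODE v29 on GRCh38. Of the 8372 genes at 10 CPM or more, 6.74% had a ratio as low or lower.

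CSNK1D encodes casein kinase 1 delta, the closest relative of the epsilon form, with which it shares the task of phosphorylating PER proteins (ENSG00000141551, chromosome 17, 82239023 to 82273731, minus strand). It went the other way, with 3512 and 3833 counts, or 173 and 193 CPM, and a ratio of 1.12 (1.07 to 1.17). As far or farther above 1 lay 28.0% of genes at 10 CPM or more. Exons of CSNK1D overlap those of SLC16A3, a lactate transporter gene on the opposite strand that had 16802 and 15179 counts. Whether the counting used strand is not stated in the sources used here, and reads in the overlap cannot be assigned with certainty.

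The opposite directions of the pair left its sum nearly level while its makeup differed. CSNK1D and CSNK1E together had 5347 and 5195 counts, a ratio of 0.994 (0.957 to 1.03). CSNK1E made up 34.3% (exact binomial interval 33.0 to 35.6) of the pair's counts in the library labelled Ad-GFP but 26.2% (25.0 to 27.4) in the other. The odds of CSNK1E against CSNK1D differed by a ratio of 0.680 (0.625 to 0.740), a value that does not depend on how the libraries are scaled to each other. Its interval covers counting error alone. How far the makeup of other gene pairs differed was not examined, here or for the pairs below. In both libraries the delta form was the more abundant also per length, at 46.7 and 52.1 CPM per kilobase against 32.4 and 24.6 for the epsilon form.

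CSNK1A1 encodes casein kinase 1 alpha, which primes beta-catenin for GSK3 and also acts on PER proteins (ENSG00000113712, chromosome 5, 149492197 to 149551552, minus strand). It had 1972 and 1736 counts, or 97.3 and 87.6 CPM, a ratio of 0.901 (0.844 to 0.961). CSNK2A1, a catalytic subunit of casein kinase 2, a kinase that phosphorylates BMAL1 among many substrates (ENSG00000101266, chromosome 20, 472498 to 543835, minus strand), had the highest counts of the 9. These were 4610 and 4182, or 227 and 211 CPM, a ratio of 0.928 (0.890 to 0.968). Both ratios were close to 1, with 25.0% of genes at 10 CPM or more having a ratio as low as that of CSNK1A1 and 30.7% one as low as that of CSNK2A1.

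Both forms of glycogen synthase kinase 3, which phosphorylates clock proteins as well as glycogen synthase and beta-catenin, were present at unlike ratios. GSK3B, the beta form (ENSG00000082701, chromosome 3, 119821323 to 120094417, minus strand), had 830 and 1081 counts. That is 40.9 and 54.6 CPM, a ratio of 1.33 (1.22 to 1.46), the highest of the 9, and 7.63% of genes at 10 CPM or more lay as far or farther above 1. GSK3A, the alpha form (ENSG00000105723, chromosome 19, 42230186 to 42242625, minus strand), had 1330 and 1348 counts, or 65.6 and 68.0 CPM. Its ratio of 1.04 had an interval of 0.961 to 1.12, which includes 1.

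The GSK3 pair as a whole had 2160 and 2429 counts, a ratio of 1.15 (1.09 to 1.22). GSK3A made up 61.6% (59.5 to 63.6) of the former and 55.5% (53.5 to 57.5) of the latter, an odds ratio of 0.778 (0.690 to 0.877). By best-supported transcript GSK3B is the longest of the 9 at 7711 bp, against 3524 bp for GSK3A. Per length the alpha form therefore stood higher still, at 18.6 and 19.3 CPM per kilobase beside 5.31 and 7.08 for the beta form.

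FBXW11 and BTRC encode beta-TrCP2 and beta-TrCP1, the F-box proteins that recognise phosphorylated PER, beta-catenin and the NF-kB inhibitor IkB alpha. FBXW11 (ENSG00000072803, chromosome 5, 171861549 to 172006873, minus strand) had 868 and 825 counts, or 42.8 and 41.6 CPM, a ratio of 0.973 (0.883 to 1.07). BTRC (ENSG00000166167, chromosome 10, 101354033 to 101557321, plus strand) had the fewest counts of the 9, 355 and 372, or 17.5 and 18.8 CPM, a ratio of 1.07 (0.925 to 1.24). Neither difference was detectable at this depth.

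Together the beta-TrCP genes had 1223 and 1197 counts, a ratio of 1.00 (0.924 to 1.09). BTRC made up 29.0% (26.5 to 31.7) of the first total and 31.1% (28.5 to 33.8) of the second. The odds ratio of 1.10 had an interval of 0.923 to 1.32, so of the 3 pairs this was the one whose makeup could not be told apart between the libraries.

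**Figure D2:**
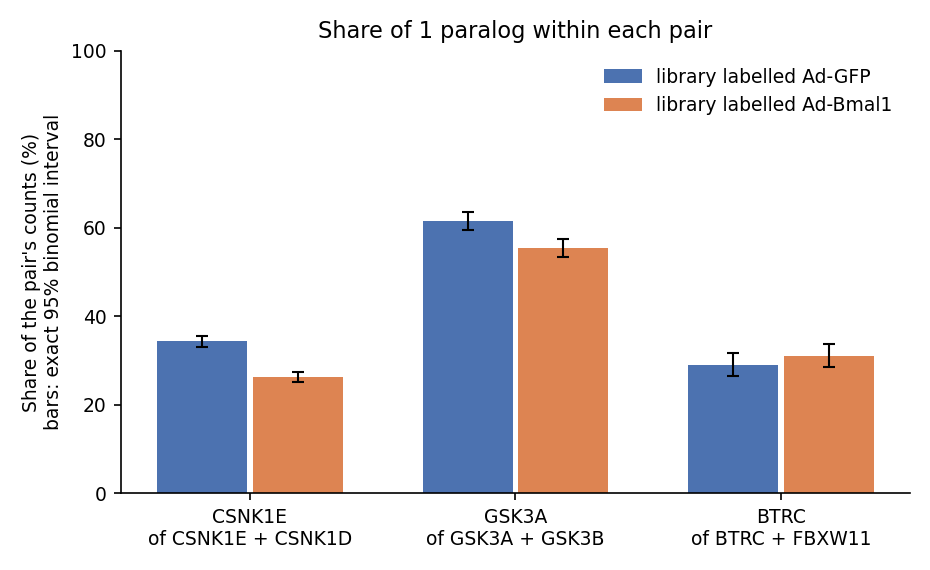
Share in percent of the summed counts of each paralog pair taken by the gene named first, in the library labelled Ad-GFP (blue) and the library labelled Ad-Bmal1 (orange), with exact 95% binomial intervals as bars. The CSNK1E share is 34.3% and 26.2%, the GSK3A share 61.6% and 55.5%, and the intervals of the BTRC share overlap.

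TIMELESS, a part of the complex that steadies replication forks (ENSG00000111602, chromosome 12, 56416373 to 56449403, minus strand), had 2446 and 2976 counts. Its level was 121 and 150 CPM, the largest difference in CPM of the 9 at 29.5, and a ratio of 1.24 (1.18 to 1.31). Of genes at 10 CPM or more 13.1% lay as far or farther above 1. The 12 genes listed for the replicative helicase ranged from 0.860 for GINS2 to 1.16 for MCM4. With the trend on transcript length described below removed, the highest of them was CDC45 at 1.17, beside 1.19 for TIMELESS.

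Per kilobase of transcript, a scale on which genes can be compared, the order in the library labelled Ad-GFP was CSNK2A1, CSNK1D, CSNK1E, TIMELESS, GSK3A, CSNK1A1, FBXW11, GSK3B and BTRC. It ran from 51.8 CPM per kilobase for CSNK2A1 to 2.85 for BTRC. In the library labelled Ad-Bmal1 CSNK1D (52.1) stood before CSNK2A1 (48.1) and TIMELESS (29.3) before CSNK1E (24.6), and the other places were the same. No 2 neighbours in either order had overlapping counting intervals, but how far cultures vary is not known. The place of CSNK2A1 rests on the length chosen, since its longest annotated coding transcript of any support has 12912 bp where the well-supported one used here has 4390 bp. On the longer length CSNK2A1 would stand at 17.6 and 16.3 CPM per kilobase.

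Longer transcripts had higher ratios across the libraries, a trend that touches the members unequally. Among genes at 10 CPM or more the median log2 ratio was -0.07 for transcripts above 1000 and up to 2000 bp, 0.08 above 4000 and up to 6000 bp, and 0.22 above 8000 bp. With a smooth trend on length removed, GSK3B was 1.19-fold higher (1.09 to 1.30) and short of the size asked for, and TIMELESS was 1.19-fold higher with a lower bound of 1.12. CSNK1E, whose best-supported transcript of 2791 bp is the shortest of the 9, then had a ratio of 0.769 (0.716 to 0.825), and CSNK1A1 went to 0.835 (0.782 to 0.891). The direction of BTRC turned with the trend removed, from 1.07 to 0.992, with intervals that included 1 both ways. The odds ratio of CSNK1E against CSNK1D was 0.698 (0.642 to 0.760) and that of GSK3A against GSK3B 0.862 (0.765 to 0.972) once the trend was removed. What causes the trend was not tested.

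**Figure D3:**
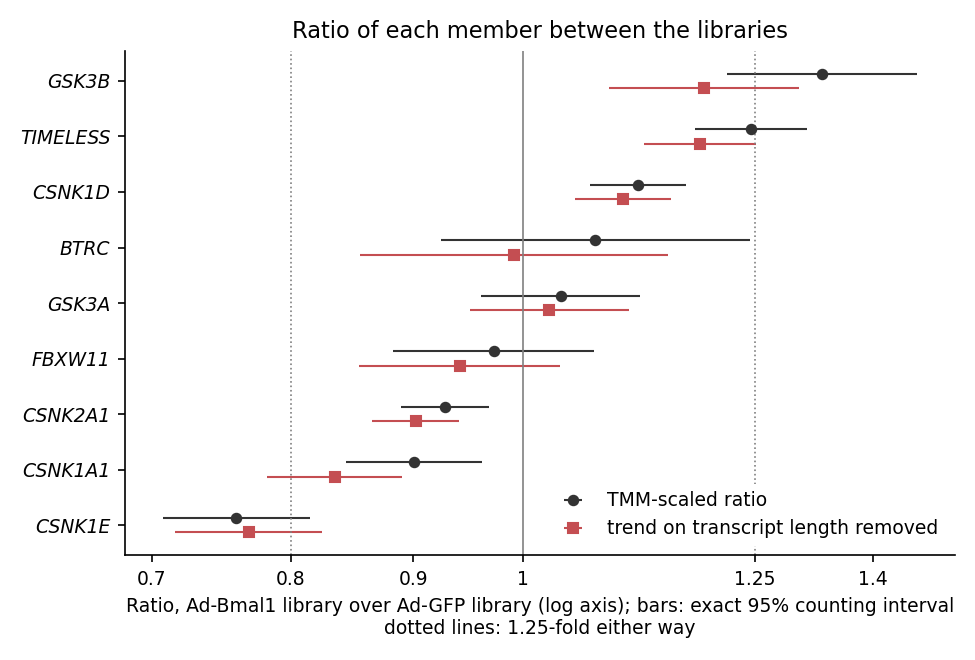
Ratio of each of the 9 genes between the libraries (Ad-Bmal1 label over Ad-GFP label) on a log axis, as TMM-scaled (black circles) and with the trend on transcript length removed (red squares), with exact 95% counting intervals. Dotted lines mark 25% above and 20% below 1, a size that GSK3B passes before the length trend is removed (1.33) and not after (1.19), while CSNK1E passes it both ways (0.759 and 0.769).

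**Figure D4:**
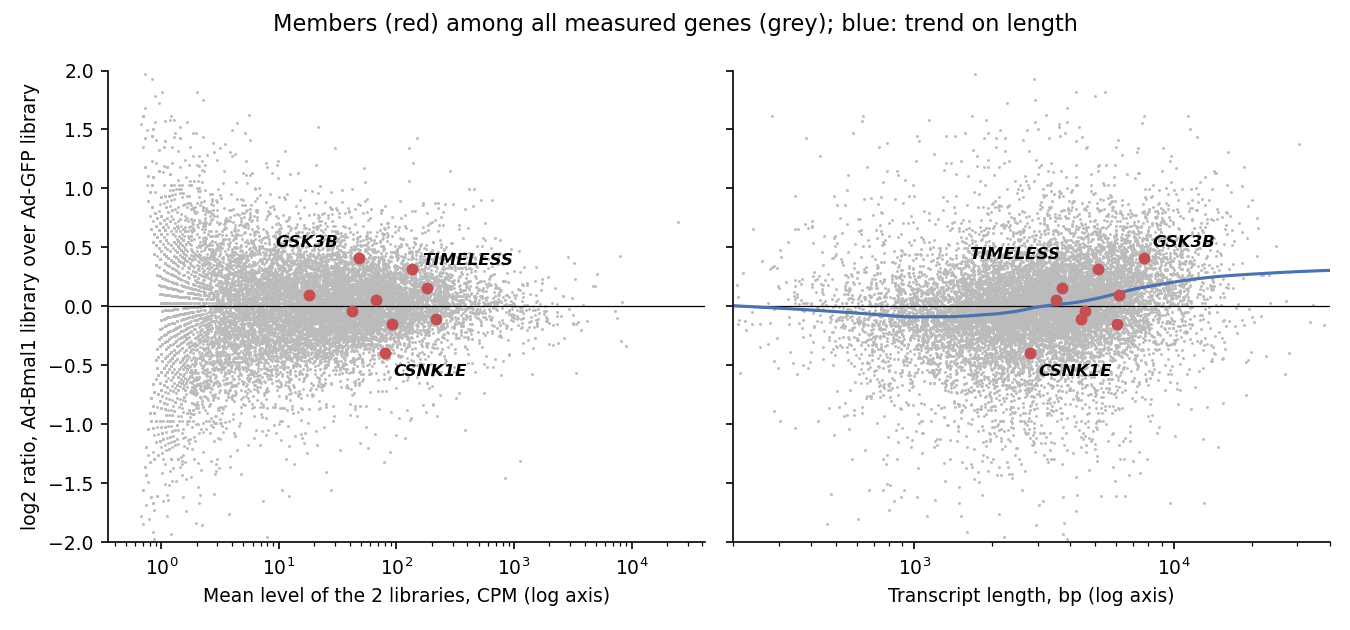
Log2 ratio between the libraries (Ad-Bmal1 label over Ad-GFP label) for all measured genes (grey) and the 9 genes (red), against the mean CPM of the libraries on the left and against transcript length on the right, both on log axes. The blue line is the trend on length, which climbs above 0 for long transcripts such as that of GSK3B, and CSNK1E lies below it. Not drawn are 32 genes beyond 2 on the log2 scale and, on the right, 37 genes with no length or one outside 200 to 40000 bp.

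Reads from stretches that a member shares with another gene can be split or dropped in counting, and the other genes involved had few counts, SLC16A3 apart. Of windows of 150 bases, the read length, in annotated transcripts, 32.3% of those of CSNK1A1 occur letter for letter in AC021078.1, a non-coding gene on the same strand, which had 5 and 11 counts. For CSNK1E 17.9% occur in the read-through gene TPTEP2-CSNK1E, which had 0 counts in both libraries. CSNK2A1 shares 1.83% of its windows with CSNK2A3, an intronless copy that had 165 and 182 counts, and their sum had a log2 ratio of -0.10 beside -0.11 for CSNK2A1 alone. GSK3A shares 8.08% of its windows with AC006486.1, which had 0 counts in both libraries, and CSNK1D shares 8.07% with 2 genes, AC132872.4 (8 and 5 counts) holding 6.58%. GSK3B, FBXW11, BTRC and TIMELESS share none with any other annotated gene.

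The genes that work with the members were read from lists covering other kinases, phosphatases, ligases, replication factors and substrates, 73 genes in all of which 69 were measured. Of the 69, 6 were higher by that size (at least 25% above 1; 8.70%, beside 11.6% of all measured genes) and 1 was lower by it (at least 20% below 1; 1.45%, beside 11.2%). Their median log2 ratio was 0.07. With scaling by total counts 4 were lower by that size, MAPK8, MAPK9, PPP1CB and AMER1.

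No close relative of the casein kinases reached the size above. All 6 measured genes of the 7 listed had a ratio above 1, as 50.4% of all measured genes did, and 3 of the 6 intervals included 1 (CSNK1G1, CSNK1G3 and CSNK2A3). The median log2 ratio was 0.15, though CSNK1G1 and CSNK1G3 were below 1 with the length trend removed, and CSNK1G3 had 65 counts in each library, which is level by total counts. CSNK1G2, a membrane-bound casein kinase 1 gamma, had 3243 and 3409 counts, a ratio of 1.08 (1.02 to 1.13). CSNK2A2, the other catalytic subunit of casein kinase 2, had 1146 and 1236 counts, a ratio of 1.10 (1.02 to 1.20), opposite in direction to CSNK2A1. The regulatory subunit gene CSNK2B had 240 and 286 counts, a ratio of 1.22 (1.02 to 1.45) that went to 1.30, past 25% above 1, with the length trend removed.

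Among 10 other kinases that phosphorylate clock proteins 1 was higher by that size, 1 was lower, and the median log2 ratio was -0.06. PRKCA, protein kinase C alpha, had 1044 and 1419 counts, a ratio of 1.39 (1.28 to 1.51) that went to 1.22 with the length trend removed. MAPK8, the kinase JNK1, had 761 and 573 counts, a ratio of 0.770 (0.690 to 0.860). Its relative MAPK9, at 0.806 (0.699 to 0.928), did not reach that size. None of 6 phosphatase catalytic subunit genes reached it either, with a median of 0.00, PPP1CA at 1.03 (0.990 to 1.07) and PPP5C, a phosphatase that acts on casein kinase 1 epsilon, at 0.995 (0.943 to 1.05). Farthest from 1 among them were PPP1CB at 0.803 (0.739 to 0.871), which went to 0.769 with the length trend removed, and PPP2CB at 1.18 (1.11 to 1.26).

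The core of the SCF ligase that beta-TrCP proteins join had no gene of that size among 5, with a median log2 ratio of 0.15. Its RING subunit gene RBX1 had a ratio of 1.11 (1.05 to 1.18), and NEDD8, the modifier that activates the ligase, 0.829 (0.768 to 0.895). Among 10 measured genes of other ligases and deubiquitinases that act on clock proteins 3 were higher by that size and none lower, with a median of 0.14. HUWE1, a large HECT-type ligase, had 5577 and 9681 counts, a ratio of 1.78 (1.72 to 1.84), on a transcript of 14739 bp, and 1.49 with the length trend removed. FBXW7, an F-box protein that recognises substrates marked by GSK3, had 188 and 263 counts, a ratio of 1.43 (1.18 to 1.74). MDM2, the p53 ligase, had 105 and 145, a ratio of 1.41 (1.09 to 1.83) that went to 1.20 with the trend removed.

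Of 10 genes whose products work with TIMELESS at the fork 1 was higher by the size above, none was lower, and the median log2 ratio was 0.09. Ratios were above 1 for 8 of the 10, and 5 intervals excluded 1, among them that of RPA3, a subunit of the single-strand binding protein RPA, at 0.855 (0.794 to 0.919). CLSPN, which encodes the checkpoint adaptor claspin, had 149 and 205 counts, a ratio of 1.41 (1.13 to 1.75). TIPIN, the direct binding partner of TIMELESS, had 150 and 156 counts, a ratio of 1.06 whose interval of 0.845 to 1.34 includes both 1 and the TIMELESS ratio. No gene of the replicative helicase list reached it, with a median of 0.01, MCM2 at 0.984 (0.957 to 1.01) and MCM7 at 1.03 (1.00 to 1.05).

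The kinases and beta-TrCP also act on proteins outside the clock. In the beta-catenin destruction complex, where casein kinase 1 alpha, GSK3 and beta-TrCP act in turn, none of 4 measured genes reached that size and the median log2 ratio was -0.09. CTNNB1, beta-catenin itself, had a ratio of 0.939 (0.907 to 0.973) and the scaffold gene AXIN1 0.939 (0.844 to 1.05). AMER1, which binds the complex at the membrane, was at 0.811 (0.672 to 0.979), and at 0.716 with the length trend removed. Of 6 measured genes of other beta-TrCP substrates 1 was higher, CDC25A, a cell cycle phosphatase, with 514 and 748 counts and a ratio of 1.49 (1.33 to 1.67). WEE1, a kinase that holds back mitosis, was at 1.18 (1.09 to 1.28), and FBXO5 at 1.01 (0.887 to 1.15). Below 1 were NFKBIA, which encodes IkB alpha, at 0.875 (0.839 to 0.912), and NFKB1 at 0.889 (0.817 to 0.967). ATF4, at 0.962 (0.937 to 0.987), went to 1.01 with the length trend removed. The median of that list was -0.02, or 0.04 with the length trend removed.

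**Figure D5:**
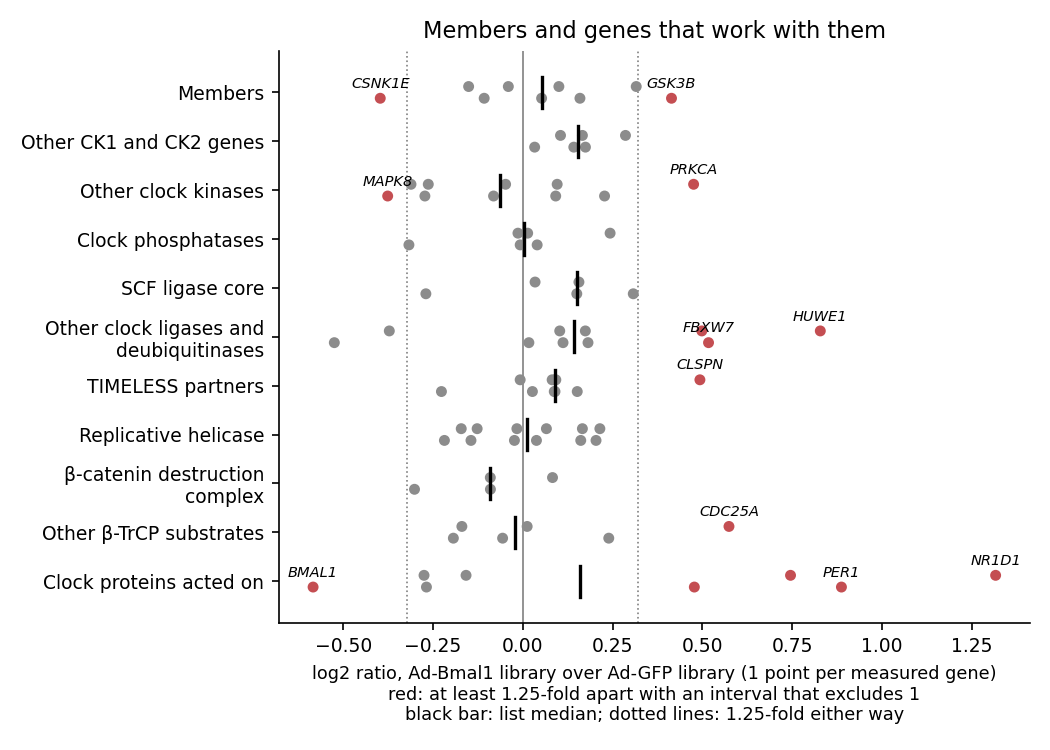
Log2 ratio between the libraries (Ad-Bmal1 label over Ad-GFP label) for every measured gene of each list, with the list median as a black bar and genes at least 25% above or 20% below 1, with an interval that excludes 1, in red. Of the 9 genes at the top CSNK1E and GSK3B are red, the casein kinase relatives all lie above 0 with TMM scaling, and HUWE1 (1.78-fold) lies farthest to the right outside the clock proteins.

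Among the clock proteins that these enzymes act on, PER1 had 490 and 886 counts, a ratio of 1.85 (1.65 to 2.07). PER2 had 72 and 118, a ratio of 1.68 (1.24 to 2.28), and PER3 had 144 and 196, a ratio of 1.39 (1.12 to 1.74). NR1D1 had 131 and 319, a ratio of 2.49 (2.03 to 3.08). With the length trend removed the ratios of PER1, PER2, PER3 and NR1D1 were 1.78, 1.54, 1.28 and 2.52. These 4 of the 8 listed were higher by the size used above (11.6% of all measured genes were) and 1 was lower (11.2%), BMAL1 itself. The rest of the 8 were below 1 but short of the size. CRY1 was at 0.830 (0.710 to 0.970), CRY2 at 0.896 (0.748 to 1.07) and CLOCK at 0.826 (0.537 to 1.27).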

How the data were processed

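Per the labels' protocols, polyadenylated RNA from 2 samples was read in pairs of 150 bp. HISAT2 and the build GRCh38 (hg38) are named in the submitters' processing notes. What the authors deposited are raw whole-number counts for each gene. For the counting tool, its strand setting and its annotation, the sources used here state nothing. Sample titles gave the groups, and 0 columns of per-sample values were left unused.

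TMM scaling (edgeR 4.0.16, R 4.3.3) made 1 CPM worth 20.3 counts (Ad-GFP label) and 19.8 counts (Ad-Bmal1 label). Since 1 library per group leaves no spread to estimate, the quasi-likelihood test of edgeR could not be fitted, and neither p-values nor SDs are printed. Measured means 1 CPM in at least 1 library. Genes at 0 counts in a library were taken at 3 counts. Ratios and shares carry exact 95% Clopper-Pearson intervals (scipy 1.17.1). They cover counting error only, and because reads carried no molecular identifiers they are not independent molecules. Every call by size, also at 1.5-fold and 2-fold, asked that the interval exclude 1. GENCODE v29 (GRCh38), which holds 99.5% of the identifiers, gave positions and lengths. A gene's length is that of its longest coding transcript of support level 1, else its longest coding transcript, else its longest transcript. The trend on length was fitted by lowess (statsmodels 0.14.6). The size rules and the coverage of the intervals were tried on simulated counts that held counting error alone. Such counts cannot show how far cultures vary, and the other steps were not tried on them.

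The members, the gene lists and the sizes were chosen with earlier results of these data known. All members are named and, from each list of pathway genes, the genes that met the size, or else the 2 most abundant. CSNK2B, CSNK1G1, CSNK1G3, CSNK2A3, MAPK9, PPP1CB, PPP2CB, CAND1, TIPIN, RPA3, GINS2, MCM4, CDC45, AMER1, WEE1, NFKBIA, NFKB1, ATF4, FBXO5, CRY1, CRY2, CLOCK and the marker genes were picked after their values were seen. No genes with a pattern like that of a member were sought, since 2 libraries give a single ratio. Alternatives were scaling by totals (all, or without mitochondrial genes and the top 20), by DESeq2 1.42.0 or by upper quartile, other filters and sizes, removal of the length trend and sums with near copies.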

Additional observations from a re-analysis of the deposited data

How the results depend on the processing

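No paired analysis was possible because each group has 1 library, and for the same reason no replicate could be left out. The members' median log2 ratio ranged from -0.01 with the length trend removed to 0.05, and no member was 2-fold apart under any setting run. GSK3B, the 1 member at least 25% above 1, fell short with the length trend removed (by either length), at 1.5-fold, and where the whole interval had to pass the size, leaving 0 in each case. CSNK1E, the 1 member at least 20% below 1, left 0 at 1.5-fold and with the whole interval past the size, but the count was 2 with the trend removed by the longest transcript of any support, a choice added after seeing the data, which brought in CSNK2A1 (log2 ratio -0.35). Genes of the partner lists lower by that size numbered 1, but 4 under total counts, 4 under DESeq2 size factors, 2 under upper-quartile scaling, 3 under totals less mitochondrial and the most abundant genes, and 3 or 4 with the length trend removed by either length. Per kilobase of transcript the CSNK1E share was 41.0% and 32.1%, the GSK3A share 77.8% and 73.2%, and the BTRC share 23.2% and 25.0%, Ad-GFP label first, each in the same direction as by counts. Across the 4 other scalings the CSNK1E ratio ranged from 0.742 to 0.757, the GSK3B ratio from 1.30 to 1.33 and the TIMELESS ratio from 1.22 to 1.24. Counting depth limits BTRC most, and the variation between cultures is unknown.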
